A study of Homo sapiens with 42 samples.

Results

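Raising the dose of YKL in cells whose CDK7 lacks its reactive cysteine was examined by comparing 6 of the 42 libraries of the study: 3 from HAP1 CDK7 C312S cells given YKL at 2 µM and 3 from the same cells given 500 nM. HAP1 is a near-haploid human line derived from a chronic myelogenous leukemia. The C312S cells carry a serine in place of a cysteine of CDK7, and both dose groups share this substitution, the medium and a treatment of 24 h. YKL is the treatment name in the labels and is taken here to be a covalent CDK7 inhibitor. Polyadenylated RNA was measured as FPKM, a fragment count scaled to transcript length and to library size. The same doses in HAP1 WT cells (6 libraries), and C312S cells given the doses together with THZ531, an inhibitor of CDK12 and CDK13 (6 libraries, THZ531 dose not in the labels), were used for comparison. The labels do not say whether the C312S line is 1 clone, nor whether replicate libraries were grown as independent cultures. The p-values below therefore speak of scatter among libraries, part or all of which may be technical.

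CDK7 acts in a complex that switches on the cell cycle kinases, and within the general transcription factor TFIIH it phosphorylates RNA polymerase II at promoters. Covalent CDK7 inhibitors bond to a cysteine outside the catalytic centre, and serine at that position removes the bond while leaving the protein in place. The comparison asks which transcripts follow the dose where that bond cannot form.

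The 6 libraries held 548889 to 569421 summed FPKM. Within the groups, pairs of libraries correlated across genes by at least 0.9703 (2 µM) and 0.9713 (500 nM), and pairs taken across the groups by at most 0.9787. The depth is not given by the files, but the steps between low values give the relative number of fragments behind 1 FPKM. Taking 500 nM replicate 1 as 1, the other libraries had 0.642, 0.518 and 0.521 (2 µM replicates 1, 2 and 3) and 0.402 and 0.652 (500 nM replicates 2 and 3). The C312S libraries with DMSO or THZ1, another covalent CDK7 inhibitor, stood apart with 780085 to 913367 summed FPKM, against 542909 to 597533 in the other 15 C312S libraries. They enter the comparison through the shared estimate of spread and through the filter on low values. Defining markers of blood cells were at or near 0: PTPRC did not exceed 0.01218 FPKM at 2 µM and was 0 at 500 nM, and SPI1 was 0 at 2 µM and did not exceed 0.02508 at 500 nM. The blood cell list summed to 5.07 to 6.76 FPKM at 2 µM and 4.41 to 5.31 at 500 nM. The epithelial and fibroblast list was mixed, so no cell type is read from it. VIM, a mesenchymal filament protein, had 297.5 to 305.4 FPKM at 2 µM and 318.8 to 326.1 at 500 nM. KRT18, an epithelial keratin, had 33.27 to 34.99 and 31.03 to 33.23 FPKM. The fibroblast genes COL1A1 and PDGFRB did not exceed 1.257 and 0.04219 FPKM in either group, and CDH1, an epithelial gene, was 0 in both.

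Few genes were called between the doses, and among them were histone and actin cytoskeleton transcripts that were higher at 2 µM. A floor of 1 FPKM, reached in 3 or more libraries, kept 12816 genes, of which 470 (3.67%) passed an adjusted p under 0.05 in limma's test on log2(FPKM + 1): 259 were higher at 2 µM (2.02%) and 211 lower (1.65%). Before adjustment 2455 of the tested genes had a limma p under 0.05, so a gene not called may still have moved. Among the called genes the median size was 0.23 on the log2 scale, and 5 reached a 2-fold difference, all higher at 2 µM. These were HIST1H2BJ, HIST1H2AC and 3 rows that had a value of 0 in at least 1 library, named after their values were seen: CLPSL2, with 2.36, 1.99 and 2.86 FPKM at 2 µM, against 1.35, 0 and 0.62 at 500 nM, and the short RNAs MIR8072 and SNORA23, both 0 in all 500 nM libraries. The count of 470 rested on all 6 libraries. It was 246 and 262 without 2 µM replicates 1 and 2, 3.1e+02 (rounded) without replicate 3, and 221, 176 and 273 without 500 nM replicates 1, 2 and 3. Of the calls 55.1% were higher as deposited and 63.9% with equal total FPKM. With every library scaled to its spike-ins 28 genes were called, 100% of them higher, and the median gene moved to 0.092 on the log2 scale. Of the 55 named genes called between the doses, 22 kept the call without each of the 6 libraries in turn: HIST1H2BJ, HIST1H2AC, HIST1H2BK, HIST1H1C, ACTG2, TAGLN, LIMA1, TPM1, CSRP1, CYR61, EGLN3, MGST2, NELFCD, SRSF11, E2F1, TK1, UNG, ASNS, GPRASP2, SYMPK, GTF2H3 and HNRNPH1. The others lost it without at least 1 library.

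**Figure D1:**
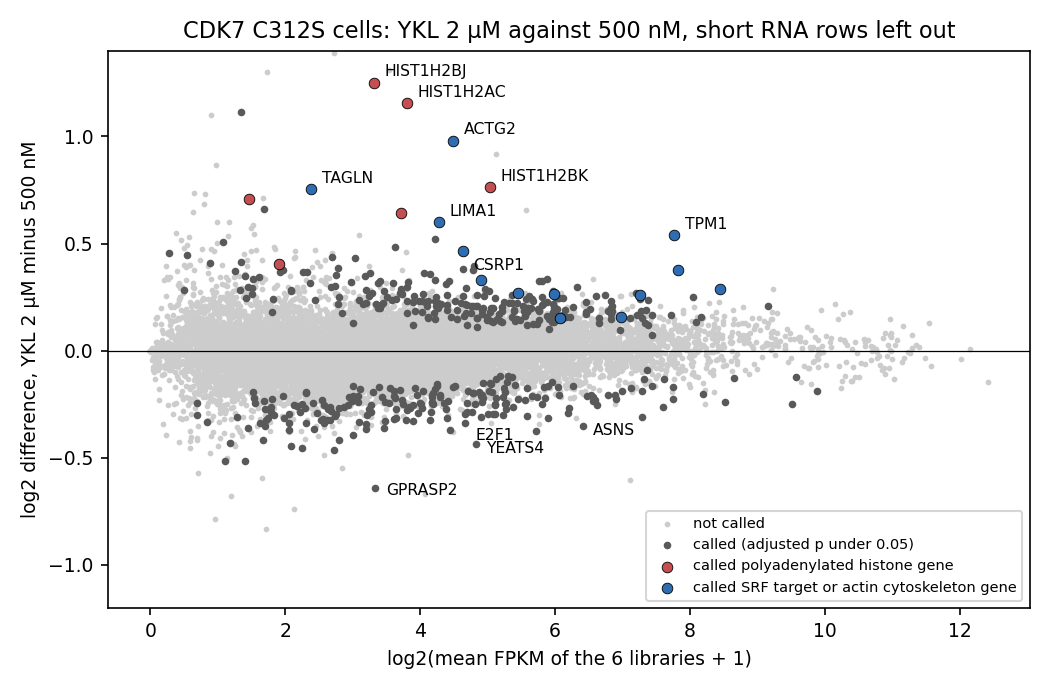
Each point is a gene (short RNA rows left out), placed by log2 of its mean FPKM + 1 over the 6 libraries and by its log2 difference, YKL 2 µM minus 500 nM; dark points passed the test, and colours mark called histone and actin cytoskeleton genes. Among called genes with a mean of at least 5 FPKM, HIST1H2BJ, HIST1H2AC and ACTG2 lie highest, the point of CLPSL2 lies above ACTG2 at a lower level, and 2 uncalled genes lie outside the axes.

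CDK7, CDK12, CDK13, CCNE1, CCNE2, MYC, MCL1 and CDKN1A did not pass the test. CDK7 had 31.9, 30.1 and 33.1 FPKM at 2 µM, against 33.1, 32.2 and 31.1 at 500 nM, and the groups overlapped (log2 difference -0.02 ± 0.06 SE, limma adjusted p = 0.8899). A substitution does not alter such a level, so it checks no label. The log2 difference was -0.02 for CDK12 and 0.00 for CDK13, kinases of transcript elongation, 0.03 for CCNE1 and -0.15 for CCNE2 (the cyclins E), -0.09 for MYC and 0.00 for MCL1, a survival protein. CDKN1A, a cell cycle inhibitor, averaged 6.497 ± 0.25 FPKM at 2 µM and 5.25 ± 0.32 at 500 nM (SD, n = 3), with a log2 difference of 0.26 and a limma adjusted p of 0.1197. Of the 10 TFIIH and CDK-activating kinase genes ERCC3, a helicase of TFIIH, was higher (0.14) and GTF2H3, a core subunit, was lower (-0.24). The shares over all tested genes were 2.02% higher and 1.65% lower.

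Genes of the actin cytoskeleton, many of them targets of the serum response factor SRF, formed a group of higher transcripts. Of 50 tested members 13 were higher and 0 lower, with a median log2 difference of 0.10, against 2.02% of all tested genes higher and a median of -0.01. This list was added after values had been seen, so its count is a description. ACTG2, the smooth muscle gamma actin, had 29.1, 28.3 and 29.1 FPKM at 2 µM, against 13.6, 13.3 and 15.5 at 500 nM. The groups lay far apart, with a ratio of means of 2.04 and a log2 difference of 0.98 ± 0.09 (SE, limma adjusted p = 5.792e-08). TAGLN, a smooth muscle actin-binding protein, had 5.90, 5.07 and 5.71 FPKM at 2 µM, against 2.43, 3.06 and 3.20 at 500 nM. LIMA1, which cross-links actin filaments, had 21.7, 21.7 and 24.0 FPKM at 2 µM, against 14.4, 14.5 and 14.5 at 500 nM. Neither gene had overlapping groups, and their log2 differences were 0.75 (limma adjusted p = 2.518e-05) and 0.60 (9.885e-10). TPM1, a tropomyosin that lines actin filaments, is far more abundant per length, with 262, 252 and 257 FPKM at 2 µM, against 178, 170 and 181 at 500 nM (log2 difference 0.54, limma adjusted p = 9.885e-10). CSRP1, a LIM protein of actin bundles, differed by 0.47. The other 8 higher members were TPM4 (0.37), FHL2 (0.33), MYL12A (0.29), CALD1 (0.27), CNN3 (0.26), VCL (0.26), WDR1 (0.16) and CORO1C (0.15). Leaving out any single library left 12 or 13 higher, and spike-in scaling left 6.

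SRF binds a motif called the CArG box, so promoters of the list were searched for it on both strands, in the 250 bases before and 50 after the RefSeq start site (GRCh38.p14). Only the first listed promoter of each member was searched, so a box at another start site would be missed. The share over all RefSeq promoters counts every listed promoter. Of 47 matched members 8 held a box (17%): 3 of the 12 matched members that were higher (25%) and 5 of the 35 that were not called (14.3%). Of all 35116 RefSeq promoters 1.29% held one, but the list was assembled from SRF targets with values known, so a higher share in it is built in. The promoters of the 3 higher genes with a box are printed to show where the motif lies, in capitals. ACTG2 lies at chr2:73892758-73893057 on the plus strand and has boxes starting 110 and 73 bases before the start site. TPM4 lies at chr19:16067288-16067587 on the plus strand, with a box 173 bases before the start site, and FHL2 at chr2:105438464-105438763 on the minus strand, with a box 101 bases before it. A match in letters does not show binding.
ACTG2: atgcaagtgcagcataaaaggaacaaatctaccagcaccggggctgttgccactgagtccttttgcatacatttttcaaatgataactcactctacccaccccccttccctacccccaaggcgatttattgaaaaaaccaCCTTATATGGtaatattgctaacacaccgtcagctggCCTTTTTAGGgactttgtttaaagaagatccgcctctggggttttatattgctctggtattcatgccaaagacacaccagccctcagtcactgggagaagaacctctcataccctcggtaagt
TPM4: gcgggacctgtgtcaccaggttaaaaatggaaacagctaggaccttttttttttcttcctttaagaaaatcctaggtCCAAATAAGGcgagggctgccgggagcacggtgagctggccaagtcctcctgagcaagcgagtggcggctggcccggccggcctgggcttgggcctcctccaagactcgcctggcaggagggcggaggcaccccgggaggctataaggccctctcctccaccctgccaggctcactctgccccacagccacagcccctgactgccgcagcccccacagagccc
FHL2: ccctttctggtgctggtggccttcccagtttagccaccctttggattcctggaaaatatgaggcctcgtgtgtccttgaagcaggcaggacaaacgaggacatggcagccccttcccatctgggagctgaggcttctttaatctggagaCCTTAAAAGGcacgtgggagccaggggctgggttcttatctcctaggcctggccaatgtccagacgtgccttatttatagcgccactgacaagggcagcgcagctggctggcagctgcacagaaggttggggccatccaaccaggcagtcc

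Immediate early genes and targets of YAP and TGF-beta, which share members with the cytoskeletal list, were higher in part. Of 38 immediate early genes 5 were higher and 0 lower, and of 25 YAP, TGF-beta and matrix genes 5 were higher and 0 lower, against 2.02% of all tested genes higher. Leaving out single libraries left 1 to 3 immediate early genes and 3 to 5 YAP, TGF-beta and matrix genes higher, with 1 immediate early gene left without 2 µM replicates 1 and 3 and without 500 nM replicate 2. Spike-in scaling left 1 and 3 higher. CYR61, a matrix protein induced by YAP, had 30.2, 29.9 and 31.7 FPKM at 2 µM, against 23.0, 22.7 and 23.3 at 500 nM. The groups did not overlap (log2 difference 0.40 ± 0.05 SE, limma adjusted p = 1.721e-06). JUN (0.34), ATF3 (0.25), CTGF (0.22), AMOTL2 (0.20) and KLF10 (0.18) completed the called members beside TAGLN and TPM1.

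Histone transcripts with a polyadenylated form were higher in part. Replication-dependent histone messages normally end in a stem-loop without a poly(A) tail, so a polyA library records only their polyadenylated part. Of 35 tested histone genes 6 were higher and 0 lower, with a median log2 difference of 0.29. Of all tested genes 2.02% were higher, with a median of -0.01. When single libraries were left out, 5 to 8 histone genes were higher. HIST1H2BJ had 11.8, 11.3 and 16.1 FPKM at 2 µM, against 4.84, 5.75 and 4.05 at 500 nM, and HIST1H2AC had 18.15, 18.04 and 18.95 FPKM at 2 µM, against 7.56, 7.52 and 8.05 at 500 nM. All 2 µM libraries exceeded all 500 nM libraries for both, with log2 differences of 1.25 (limma adjusted p = 0.0002309) and 1.15 (6.479e-08). HIST1H2BK had 42.1, 36.8 and 42.4 FPKM at 2 µM, against 23.2, 23.0 and 23.9 at 500 nM (log2 difference 0.76). HIST2H2BE, HIST1H2AE and HIST1H1C, the last a linker histone, differed by 0.40, 0.71 and 0.64. These genes have near-identical copies among which fragments can be split, so the value of a single member is uncertain.

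**Figure D2:**
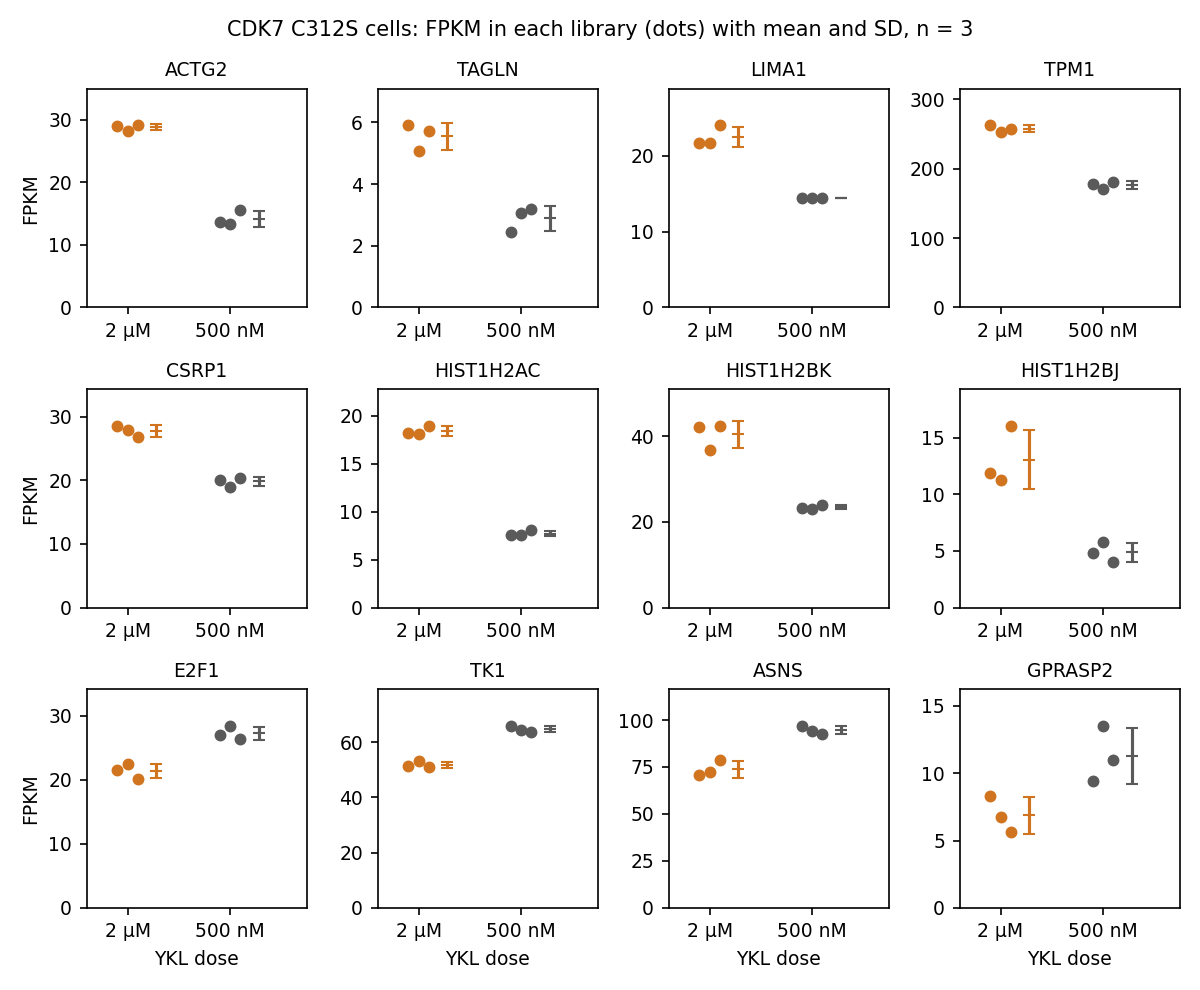
FPKM in each library (dots), with the mean and SD beside them (n = 3), for 8 genes that were higher and 4 that were lower at YKL 2 µM (left in each panel) than at 500 nM (right). The 2 µM libraries of ACTG2 sit between 28.3 and 29.1 FPKM and those at 500 nM between 13.3 and 15.5.

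Genes of S phase were lower in part. Of 47 S phase and E2F target genes 12 were lower and 2 higher, with a median log2 difference of -0.09, against 1.65% of all tested genes lower. E2F1, which drives entry into S phase, had 21.5, 22.4 and 20.1 FPKM at 2 µM, against 27.0, 28.4 and 26.4 at 500 nM. TK1, which makes thymidine phosphate, had 51.3, 53.1 and 51.2 FPKM at 2 µM, against 66.0, 64.3 and 63.9 at 500 nM. Neither gene had overlapping groups, and they fell by 0.34 and 0.31 on the log2 scale (limma adjusted p = 0.004745 and 0.004403). POLD1 and LIG1, a DNA polymerase and ligase of replication, differed by -0.31 and -0.24, and MCM5, MCM7 and MCM4, subunits of the replicative helicase, by -0.25, -0.17 and -0.09. RFC2, CHAF1A, UNG, CDC45 and RRM2 were the other lower members, at -0.21 to -0.13, while RFC5 (0.19), a clamp loader subunit, and GINS4 (0.16), a helicase subunit, were higher. The number of lower members was 9, 7 and 6 without 2 µM replicates 1, 2 and 3, and 5, 6 and 5 without 500 nM replicates 1, 2 and 3. Scaling to spike-ins left 0 lower and turned the median to 0.02, against 0 lower and a median of 0.09 over all tested genes. Across genes the dose difference fell with GC content (Spearman's rho -0.224 over genes, which are not independent), and the median GC content was 47.5% in genes called higher, 55.3% in genes called lower and 49.8% in all. With GC and length trends removed 18 S phase genes were lower and 2 higher, 19 cytoskeletal genes were higher and 1 lower, and 7 histone genes were higher.

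The 45 G2 and mitosis genes did not shift together: 3 were higher and 1 lower, with a median log2 difference of 0.03. Of all tested genes 2.02% were higher and 1.65% lower, with a median of -0.01. CDCA8, of the chromosomal passenger complex, and ANLN, a scaffold of the cleavage furrow, were higher by 0.16 each, as was KIF20A (0.15), a mitotic kinesin named after its value was seen. PLK4, the kinase of centriole duplication, was lower by 0.25 (log2 difference -0.25). Spike-in scaling left 0 of these called. Leaving out single libraries left 0 or 1 higher and 0 or 1 lower.

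Other lists held few called genes, to be read against 2.02% of all tested genes higher and 1.65% lower. In the integrated stress response 4 of 32 genes were lower and 1 higher, against 1.65% of all tested genes lower. Leaving out single libraries left 1 to 4 lower, the fewest without 2 µM replicate 3, and spike-in scaling left 0. ASNS, the asparagine synthetase, had 70.5, 72.1 and 79.0 FPKM at 2 µM, against 96.9, 94.1 and 92.7 at 500 nM, without overlap (log2 difference -0.35, limma adjusted p = 7.334e-05). PCK2 (-0.29), CBS (-0.23) and CTH (-0.20), enzymes of amino acid and pyruvate metabolism, were also lower. SREBF1 (-0.37) and SREBF2 (-0.19), the regulators of lipid synthesis, and TM7SF2 (-0.32) were the 3 lower among 29 cholesterol genes. That count was 1, 4 and 0 without 2 µM replicates 1, 2 and 3, 0, 0 and 1 without 500 nM replicates 1, 2 and 3, and 0 with spike-in scaling. NQO1, a quinone reductase, was higher (0.26) and ABCC1, a drug exporter, lower (-0.26). Of 32 hnRNP and SR splicing factor genes SRSF11 was higher (0.23), and HNRNPA1 (-0.24) and HNRNPH1 (-0.16) were lower. Of 34 repair genes reported to depend on CDK12 only FANCE was called (-0.24), and of 26 p53 target genes only CCNG1 (-0.29), whose groups overlapped. None of 79 ribosomal protein, 68 oxidative phosphorylation or 12 RNA polymerase II subunit genes passed limma's test. In limma's test 6, 8 and 4 of them had an unadjusted p under 0.05, against 2455 of all 12816 tested genes.

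Outside the lists the largest falls were small. GPRASP2, which binds G protein-coupled receptors, had 8.32, 6.74 and 5.60 FPKM at 2 µM, against 9.39, 13.5 and 11.0 at 500 nM (log2 difference -0.64, limma adjusted p = 0.002788). YEATS4, a reader of acetylated histones, had 22.7, 20.5 and 26.1 FPKM at 2 µM, against 32.3, 29.8 and 32.4 at 500 nM (log2 difference -0.44, limma adjusted p = 0.008207). The groups did not overlap for either gene. The others by size were GBGT1 (-0.46), DLK2 (-0.42), ALDH16A1 (-0.39), MBD3 (-0.38), SYMPK (-0.37), GPSM1 (-0.37), DHRS11 (-0.36) and TMEM80 (-0.34). Calls for DLK2, ALDH16A1, MBD3 and GPSM1 were lost without any 1 of the 6 libraries. Rises outside the lists were SDHAF4 (0.52), an assembly factor of succinate dehydrogenase, TOPORS-AS1 (0.48) and NUDT7 (0.44).

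In WT cells, where YKL can bond to CDK7, the same step in dose called 792 genes (6.18%), 274 higher (2.14%) and 518 lower (4.04%). Higher genes made up 34.6% of these calls as deposited, 66.4% with equal total FPKM and 99.9% with spike-ins, which move the median gene by 0.471. Single libraries left out gave 360 to 662 calls, the lowest without 500 nM replicate 1. Only 58 genes were called in both lines, 20 of them in the same direction (4.26% of the C312S calls and 2.53% of the WT calls), while 28 were higher in C312S and lower in WT and 10 the reverse. The difference between the lines itself, C312S minus WT, passed limma's test for 993 genes (7.75%), 655 of them positive and 338 negative. Of the 470 genes called in C312S 249 were among them, 248 with the same sign. The difference between lines uses the same C312S libraries, so this agreement in sign is largely built in. The split depends on scaling: 66% of the calls were positive as deposited, 44.5% with equal total FPKM and 0.248% with spike-ins, which move the median gene by -0.374. Leaving out single libraries gave 564 to 1134 calls, the lowest without WT 2 µM replicate 1.

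ACTG2 differed by 0.98 in C312S and 0.02 in WT, and the difference between lines was 0.96 (limma adjusted p = 3.157e-05). For HIST1H2BJ and HIST1H2AC the dose difference was 1.25 and 1.15 in C312S and -0.35 and -0.13 in WT, with differences between lines of 1.60 and 1.28. TPM1 differed by 0.54 in C312S and -0.06 in WT. All 4 differences between lines kept a positive sign under each scaling, spike-ins included, but not all kept the call. With spike-ins at most 1 of ACTG2 and TPM1 passed limma's test. Of the cytoskeletal list 13 of 50 were positive and 0 negative in the difference between lines, but with spike-ins 1 was positive and 18 negative. Of the G2 and mitosis genes 0 were higher and 32 lower in WT (median -0.26), whereas 32 were higher and 0 lower with spike-ins (median 0.27). Of the same list 24 were positive and 0 negative in the difference between lines, but with spike-ins 0 were positive and 6 negative. Of the S phase genes 0 were higher and 23 lower in WT, whereas 45 were higher and 0 lower with spike-ins (median 0.36). Of these 12 were positive in the difference between lines, but with spike-ins 21 were negative. Spike-in scaling moved most genes: of all 12816 tested, 11494 were higher and 10 lower in WT (median 0.47). In the difference between lines 15 were positive and 6031 negative (median -0.37). There the list medians were -0.33 (cytoskeletal), -0.09 (G2 and mitosis) and -0.33 (S phase), above that of all tested genes. CDKN1A differed between the lines by 0.47 (limma adjusted p = 0.0304). NEAT1, a nuclear long noncoding RNA, differed by -0.33 in C312S and 0.35 in WT.

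**Figure D3:**
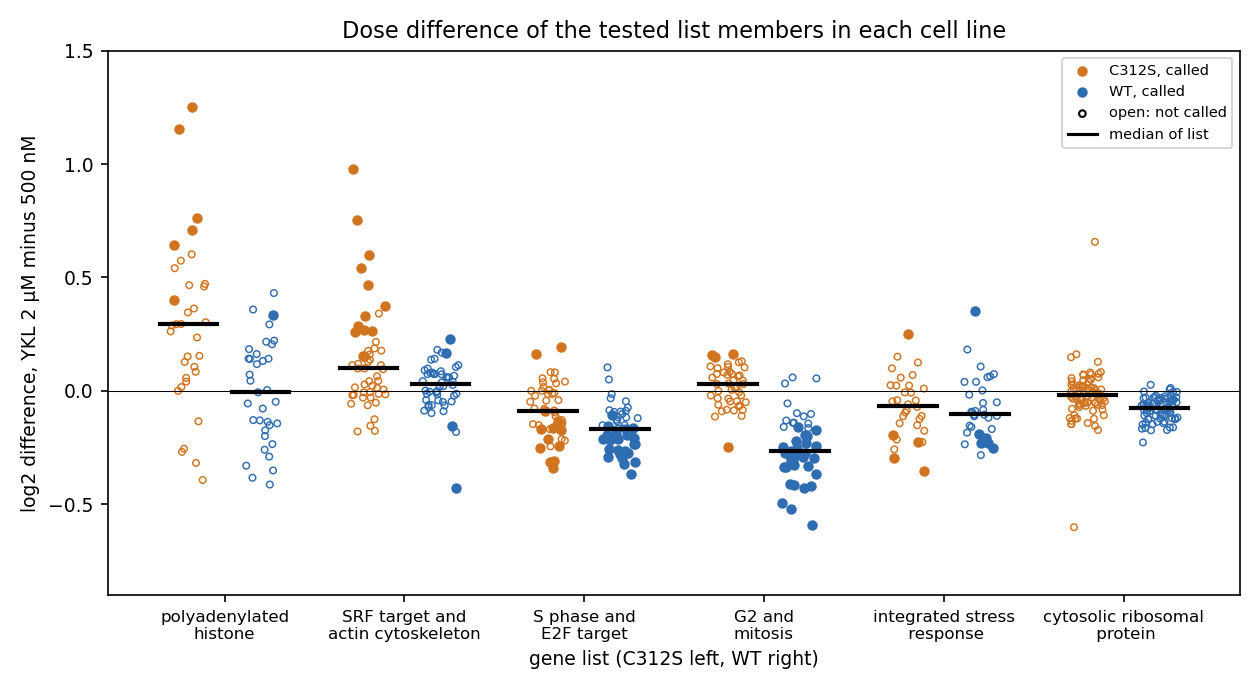
Log2 difference, YKL 2 µM minus 500 nM, of every tested member of 6 gene lists in C312S (left, orange) and WT (right, blue); filled points passed the test, bars are list medians, and 2 uncalled WT ribosomal protein genes lie outside the axis. Histone and cytoskeletal members reach above 0.5 in C312S, and G2 and mitosis members lie mostly below 0 in WT. Their WT median is -0.26 as deposited and 0.27 with spike-in scaling, against -0.01 and 0.47 for all tested genes.

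The dose step in C312S cells was measured again, in other libraries, with THZ531 present. There 2164 genes were called (16.9%), 1258 higher (9.82%) and 906 lower (7.07%). Higher genes made up 58.1% of them as deposited, 21.1% with equal total FPKM and 0.25% with spike-ins. Of the 470 genes called without THZ531, 317 were called here too and 316 had the same sign, 188 higher and 128 lower. These are 67.2% of the calls without THZ531 and 14.6% of those with it. ACTG2 had a log2 difference of 0.83, TAGLN 0.87, TPM1 0.49, HIST1H2AC 1.01 and HIST1H2BJ 1.41. Of the cytoskeletal list 17 were higher and 1 lower, and of the histone genes 12 were higher and 0 lower. With spike-in scaling 32 cytoskeletal genes were lower and 2 higher, with a median of -0.31. Of all 12816 tested genes 9192 were then lower and 23 higher, with a median of -0.345. The count of 2164 fell to 936 without 2 µM replicate 3 and to 1001 without 500 nM replicate 2 of these combinations, and to 31 when only these 6 libraries were fitted.

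**Figure D4:**
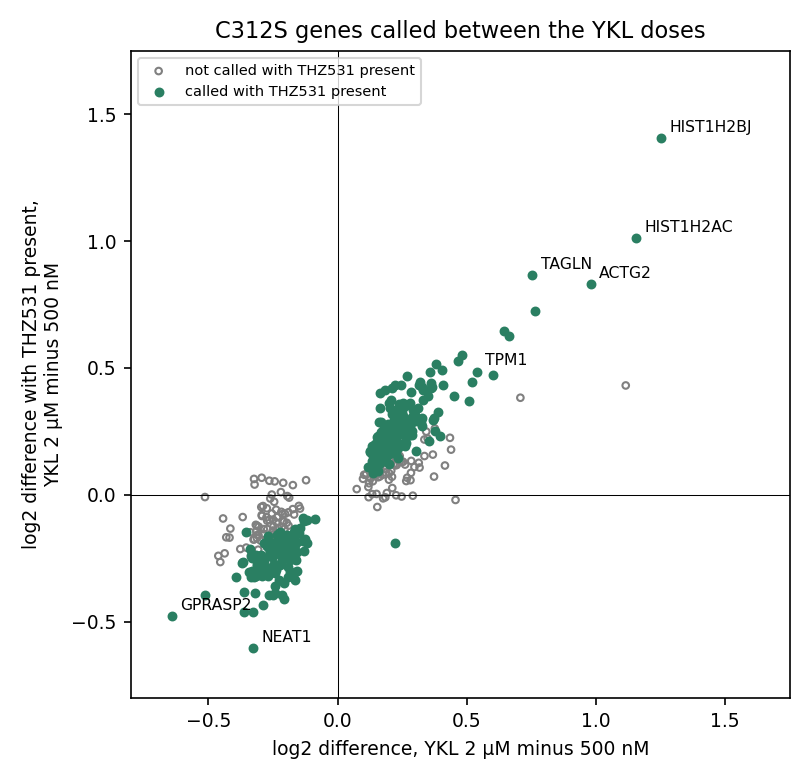
Each point is a C312S gene called between the YKL doses, short RNA rows left out (467 genes), with its log2 difference without THZ531 on the horizontal axis and with THZ531 on the vertical axis; filled points were called in both. Of all 470 called genes 316 were called with the same sign, and HIST1H2BJ and HIST1H2AC lie farthest to the upper right.

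Levels over the C312S treatments place the dose step. ACTG2 averaged 9.53 ± 0.70 FPKM with DMSO, 14.2 ± 1.22 with YKL 500 nM and 28.8 ± 0.48 with 2 µM (SD, n = 3 each). With THZ531 it averaged 11.99 ± 0.80 FPKM without YKL, 18.8 ± 1.70 with 500 nM and 34.2 ± 2.58 with 2 µM, and with THZ1 24.5 ± 2.39. HIST1H2AC averaged 5.15, 7.71 and 18.4 FPKM over DMSO, 500 nM and 2 µM, 5.74, 17.2 and 35.6 over the THZ531 groups in the same order, and 41.9 with THZ1. Both genes were highest with 2 µM within each series of doses. TPM1 had 191, 177 and 257 FPKM over DMSO, 500 nM and 2 µM, so its 500 nM level was not above that with DMSO. E2F1 had 17.9, 27.2 and 21.3 FPKM in the same order, and ASNS 199.9, 94.5 and 73.9. The DMSO libraries are those that stood apart in summed FPKM, and its part in these levels was not tested.

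**Figure D5:**
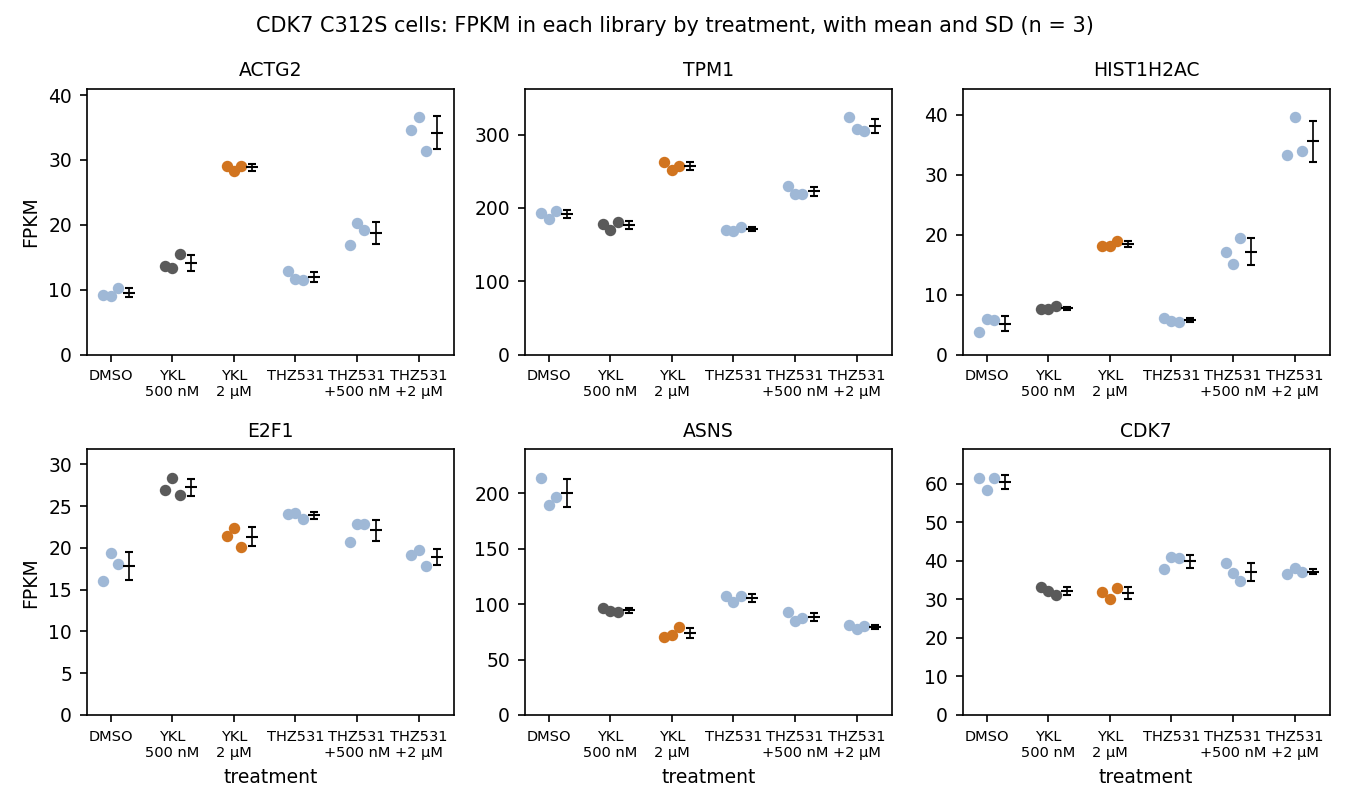
FPKM of 6 genes in the C312S libraries of 6 treatments (THZ1 not plotted), with the mean and SD (n = 3), in order of YKL dose without and then with THZ531; orange marks YKL 2 µM and grey YKL 500 nM. ACTG2 and HIST1H2AC are highest at 2 µM in both series, and of the treatments plotted CDK7 is highest with DMSO.

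Spike-ins allow a look at the amount of polyadenylated RNA relative to them. Of 92 spike-in rows 23 exceeded 1 FPKM in all 42 libraries, and these gave the levels below and the spike-in scaling used throughout. Spike-ins relative to genes, as a difference of median log2 ratios to the average library, stood at -0.452 ± 0.116 at 2 µM and -0.335 ± 0.096 at 500 nM (SD, n = 3 each). The difference of -0.117 was about the size of the spread (two-sided exact permutation p = 0.3, where 0.1 is the smallest that 3 against 3 allows). In bulk RNA a lower level per cell and fewer cells expressing a gene cannot be told apart.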

How the data were processed

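Polyadenylated RNA of 42 libraries (14 groups of 3) was analysed from the FPKM table that the authors deposited. Per the submitters' processing notes, the tools were HISAT2 2.0.4, Cufflinks (version 2.2.1) and Cuffnorm, on build hg19. Per the labels' protocols the library kit was stranded. FPKM are not counts, so no count model was used, and no counting interval can be given. Of 26228 genes, the 12816 that reached 1 FPKM in 3 or more libraries entered the test, on log2(FPKM + 1), a scale that understates changes of low genes. limma 3.58.1 (R 4.3.3) fitted 14 group means over all 42 libraries with a trend in the prior variance, and p was adjusted by Benjamini-Hochberg over all tested genes. The fit was tested on simulated data. Same-numbered libraries of the 2 doses correlated by -0.0263, 0.0263 and 0.0131 in their deviations, so the numbers were not used as pairs.

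The comparison and all gene lists were chosen with earlier results of these data known. Genes named are the 12 largest rises and 12 largest falls among called genes with libraries apart, a mean of at least 5 FPKM, no value of 0 and no short RNA, up to 2 members per list and direction, genes shared with the THZ531 comparison, 6 of each sign from the difference between lines, and 9 genes named whatever their value; other called members of small lists were named after their values were seen. GC content came from GENCODE models for 97.9% of tested genes. Plots were drawn in matplotlib 3.10.9 under Python 3.11.15.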

Additional observations from a re-analysis of the deposited data

Results flagged for a closer look

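The effect of the dose step differed between C312S and WT cells for 993 genes in limma's test of the difference itself. These were 7.75% of all tested genes, and 41 of the 70 genes named were among them. Some genes were named because they were called in this difference. Most others were named because they were called in C312S, whose libraries also enter the difference. The count of 41 is therefore largely built in and cannot be weighed against 7.75%. The values are log2 differences, C312S minus WT in YKL 2 µM minus 500 nM. The 23 positive ones were HNRNPA1P10 (1.69), HIST1H2BJ (1.60), HIST1H2AC (1.28), DHRS2 (1.13), ACTG2 (0.96), HIST1H1C (0.82), TOPORS-AS1 (0.82), TAGLN (0.68), HIST1H2BK (0.60), TPM1 (0.60), CDCA8 (0.58), LIMA1 (0.53), MGST2 (0.50), CDKN1A (0.47), CASP8 (0.45), ANLN (0.43), EGLN3 (0.42), CSRP1 (0.39), RFC5 (0.39), GINS4 (0.37), NELFCD (0.31), ERCC3 (0.26), PDIA4 (0.23). With spike-in scaling CSRP1, RFC5, GINS4, NELFCD, ERCC3 and PDIA4 turned negative, and only 15 of all tested genes were called positive.

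The 18 negative ones were COMMD3-BMI1 (-1.15), GMFB (-0.74), TMED7 (-0.73), SCOC (-0.71), NEAT1 (-0.68), SLMO2 (-0.59), DHRS11 (-0.55), CCNG1 (-0.53), TMEM80 (-0.52), YEATS4 (-0.51), GPSM1 (-0.49), SYMPK (-0.47), SREBF1 (-0.44), GTF2H3 (-0.38), ABCC1 (-0.36), HNRNPA1 (-0.29), SREBF2 (-0.27), HNRNPH1 (-0.18). HNRNPA1P10 is a pseudogene copy of HNRNPA1 and COMMD3-BMI1 a read-through of neighbouring genes, so fragments may be split among them and their values are uncertain. COMMD3-BMI1 had 2.98, 3.40 and 9.05 FPKM at 2 µM in C312S, against 7.24, 6.84 and 7.47 at 500 nM, so replicate 3 stood apart.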

How the results depend on the processing

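The count of genes called between the doses in C312S lay within 1.5 times of 470 under the smaller pseudocount, both other filters, equal total FPKM, median ratios, the groups compared alone, an untrended prior variance and the replicate block. The groups compared alone shared 262 of the 470 genes and equal total FPKM 330. The count was 28 with spike-in scaling and 875 with GC and length trends removed, an alternative chosen after seeing the data, which shared 441 of the 470 genes. Leaving out single libraries gave 176 to 3.1e+02 (rounded). The replicate block, whose numbers do not pair these libraries, gave 452 genes, 435 of them shared, and changed no call of a named gene. The difference between lines gave 6046 genes with spike-ins, 1611 with only the groups compared, 1528 with GC and length trends removed, and 564 to 1134 without single libraries. The WT dose step gave 11504, 409 and 1193 genes in the same order and 360 to 662 without single libraries, and the step with THZ531 gave 9215 with spike-ins, 31 with only the groups compared and 936 to 2161 without single libraries. Causes were not tested. The spike-in level difference ranged from -0.184 to -0.068 without single libraries. Of the 70 named genes 0 changed direction where called. Calls were lost for 43 with spike-ins, 19 with only the groups compared, 11 with equal total FPKM, 7 without a filter, and 17 to 26 without single libraries. Depth limits the low genes most, and the least deep of the 6 libraries, 500 nM replicate 2, had 0.402 of the fragments per FPKM of the deepest.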

Other observations

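Short RNA rows were left out of naming. Of 222 tested rows 3 were called between the doses in C312S, against 470 of all 12816 tested genes (3.67%). Among all called rows, short RNA rows not set aside, 402 had a mean of at least 5 FPKM in either group. In 396 of them the 3 libraries at 2 µM lay wholly above or below the 3 at 500 nM. The call itself favours such separation, and its share among genes not called is not given here.

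Oxidative phosphorylation and RNA polymerase II subunit genes differed between the doses where THZ531 was present: 33 of 68 and 8 of 12 were higher and 0 lower as deposited, against 9.82% of all tested genes higher in that dose step and 0 called by limma in either list without THZ531. With equal total FPKM 13 of 68 were higher and 2 lower, and 2 of 12 higher and 0 lower. With spike-in scaling 40 and 6 were lower and 0 higher with THZ531 present, where 9192 of all 12816 tested genes were lower and 23 higher. Both list medians were then -0.23, against -0.345 for all tested genes. The difference between these 2 dose steps was not tested.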
